A study of Caenorhabditis elegans with 2 samples.

Results

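ChIP-seq with an antibody against GFP mapped tagged ELT-2 in whole Caenorhabditis elegans L1 larvae, and the regions described here are its peaks at genes for tRNA, snRNA and snoRNA. Hermaphrodites of strain OP56 were used, in which the transgene wgIs56, in an unc-119(ed3) background, gives ELT-2 fused to GFP and FLAG at its C-terminal end. They were starved as hatchlings after bleaching and collected 6 h after synchronization. The 2 biological replicates form a single group, no condition is compared, and whole worms were used, so the cells that gave the signal are not known. A member was a peak of the reproducible list whose summit, the position of highest signal, lay inside or within 200 bp of an annotated gene of 1 of the 3 classes on the build ce11 (WBcel235). The rule used position and annotation only, and it gave 292 members of 5443 peaks, or 5.36%. Of these, 159 lay at tRNA genes, 44 at snRNA genes, 88 at snoRNA genes, and 1 at genes of both the tRNA and the snRNA class. They reached 297 of the 1087 genes of the 3 classes on the nuclear chromosomes, which are called bound below as shorthand for a summit in reach. Only peaks were deposited among the files used, and the depth behind them is unknown.

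tRNAs carry amino acids to the ribosome and are made by RNA polymerase III, which is brought to the gene by promoter elements inside it, the A box and the B box. snRNAs are the RNA parts of the spliceosome. In worms the class also holds the spliced leader RNAs SL1 and SL2, which are joined to the front of messenger RNAs by trans-splicing. SL2 is used mainly for the downstream genes of operons. snoRNAs guide chemical modification of ribosomal and other RNAs, and many lie in introns of protein-coding genes. Transcription of snRNA genes is directed by a proximal sequence element upstream of the gene, which the SNAPc complex binds. ELT-2 is the main GATA factor of the worm intestine, and its preferred site is TGATAA.

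The sequences that follow show what lay under the strongest summits. All are from the RefSeq sequence of the ce11 assembly, written 5′ to 3′ on the strand of the gene. The first set holds SL2 genes from 80 bases before the gene to base 20 of it, with the gene in capitals, so that the start of the leader can be compared between 4 bound genes and 2 unbound ones. The bound genes are sls-2.2 (chrII:5543518-5543617, plus strand), sls-2.1 (chrII:5844785-5844884, plus), sls-2.8 (chrIII:12250385-12250484, plus) and sls-2.16 (chrIII:7141311-7141410, plus). Their strongest summits lay 30, 38, 19 and 31 bp before the gene, within the printed window. The unbound genes are sls-2.13 (chrIV:5063512-5063611, minus) and sls-2.10 (chrIV:9130810-9130909, minus).
sls-2.2: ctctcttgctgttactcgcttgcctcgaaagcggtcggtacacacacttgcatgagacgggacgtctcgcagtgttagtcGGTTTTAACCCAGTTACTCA
sls-2.1: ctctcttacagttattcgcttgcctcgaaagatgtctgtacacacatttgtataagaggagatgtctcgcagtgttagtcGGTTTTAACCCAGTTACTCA
sls-2.8: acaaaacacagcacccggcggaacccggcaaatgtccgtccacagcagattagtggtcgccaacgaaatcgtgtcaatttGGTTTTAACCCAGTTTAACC
sls-2.16: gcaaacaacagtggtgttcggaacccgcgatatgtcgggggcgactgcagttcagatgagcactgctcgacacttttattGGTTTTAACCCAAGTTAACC
sls-2.13: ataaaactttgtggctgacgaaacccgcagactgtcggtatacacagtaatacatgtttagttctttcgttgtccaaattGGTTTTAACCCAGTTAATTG
sls-2.10: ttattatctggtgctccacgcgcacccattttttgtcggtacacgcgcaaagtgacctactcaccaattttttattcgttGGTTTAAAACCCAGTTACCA
None of these windows holds TGATAA on either strand. Over the 80 upstream bases, compared without gaps, sls-2.1 matched sls-2.2 at 68 positions, while sls-2.8 and sls-2.16 matched it at 26 each. The unbound sls-2.13 and sls-2.10 matched it at 36 and 20.

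The second set holds the strongest snoRNA peak, at Y53F4B.47 (chrII:15025874-15025993, minus strand), from 100 bases before the gene to base 20, with the gene in capitals. Its summit lay 72 bp before the gene.
Y53F4B.47: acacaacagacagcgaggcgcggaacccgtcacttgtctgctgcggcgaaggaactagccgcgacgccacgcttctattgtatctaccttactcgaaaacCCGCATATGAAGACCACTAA
The third set holds 3 kinds of tRNA peak. C27A2.t1, for isoleucine (chrII:5057447-5057580, minus), had the strongest tRNA peak without TGATAA, and is shown from 60 bases before the gene to its end with the B box core GGTTCGA in capitals. K03B8.t1, for valine (chrV:11412235-11412367, minus), is shown likewise with the hexamer in capitals, which reads TTATCA here because it lies on the other strand and inside the gene. F57F5.t1, for isoleucine, had the strongest tRNA peak of all, and the 101 bases around its summit (chrV:12002297-12002397, plus), all downstream of the gene, are shown with TGATAA in capitals.
C27A2.t1: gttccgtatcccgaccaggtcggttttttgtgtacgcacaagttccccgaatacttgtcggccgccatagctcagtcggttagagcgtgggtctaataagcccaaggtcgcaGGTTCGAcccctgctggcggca
K03B8.t1: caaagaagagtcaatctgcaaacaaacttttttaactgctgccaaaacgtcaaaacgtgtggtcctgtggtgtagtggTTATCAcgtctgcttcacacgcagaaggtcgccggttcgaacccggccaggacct
F57F5.t1: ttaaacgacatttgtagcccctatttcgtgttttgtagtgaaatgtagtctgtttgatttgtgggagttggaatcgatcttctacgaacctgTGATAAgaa

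The first question was how often genes of each class were bound. A summit lay in reach of 179 of 612 tRNA genes (29.2%, Wilson 95% interval 25.8 to 33.0), 33 of 129 snRNA genes (25.6%, 18.8 to 33.7) and 85 of 346 snoRNA genes (24.6%, 20.3 to 29.4). The intervals cover counting error only. For comparison, the same rule caught 8.38% of the genes of all other biotypes, which range widely in length, and 6.51% of the 261 miRNA genes. A feature of 77 bp, the median length of the 1087 genes, would have a summit in reach at 2.54% of its possible start positions in the nuclear genome. All 3 classes thus lay well above these shares. No pair of classes passed the threshold of 0.05 in Fisher exact tests, two-sided and adjusted by Benjamini-Hochberg over the 3 pairs. The adjusted p was 0.68 for tRNA against snRNA, 0.40 for tRNA against snoRNA and 0.81 for snRNA against snoRNA. When only the 2722 strongest peaks of the list were used, 7.52% of tRNA genes, 17.8% of snRNA genes and 15.0% of snoRNA genes were bound, and the tRNA share was then the lower one in both of its pairs (adjusted p = 0.0010 each, Fisher exact tests). Genes that lie close together can share a summit, and 23 peaks were in reach of 2 genes. With genes of a class within 200 bp merged into loci, the shares were 29.0%, 25.4% and 24.6%.

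**Figure D1:**
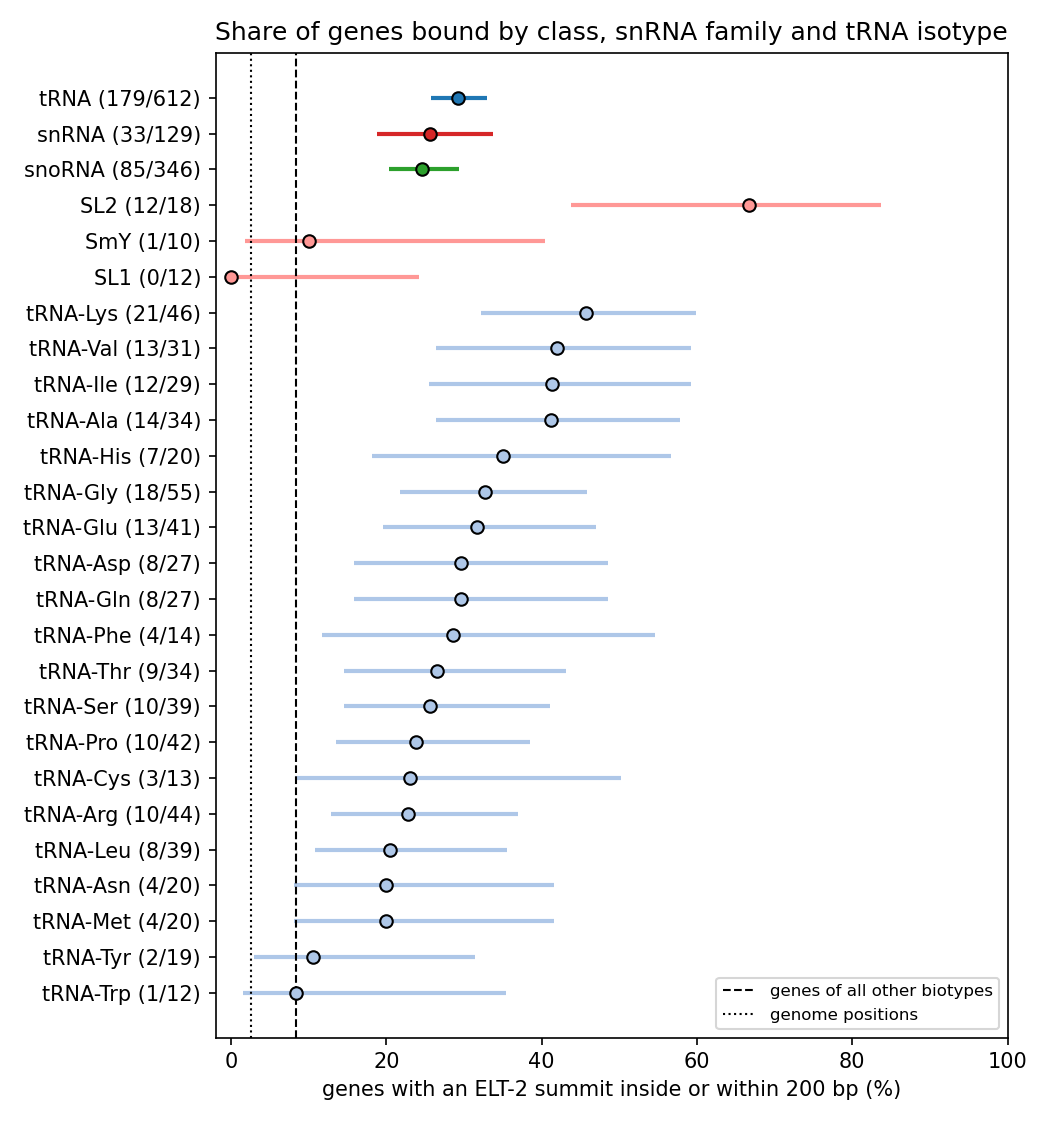
Share of genes with an ELT-2 summit inside or within 200 bp, in percent (points, with Wilson 95% intervals as lines), by class, snRNA family and tRNA isotype with at least 12 genes; counts stand beside each name. All 3 classes lie between 24.6% and 29.2%, right of the dashed line for other genes, while SL2 stands at 66.7% and SL1 at 0.

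Within the snRNA class the families that the annotation names differed widely. Of the 18 SL2 genes 12 were bound (66.7%, interval 43.7 to 83.7), against 0 of 12 SL1 genes (0 to 24.2). Of the SmY genes filed as snRNA 1 of 10 was bound (10%, 1.79 to 40.4). SmY RNAs are small nuclear RNAs of nematodes linked to trans-splicing. These families were compared after the counts were known, so no test is given. The 3 strongest members of all were SL2 peaks. The peak at sls-2.2 (chrII:5543413-5543919) had a signal of 2092, rank 12 of 5443, with 1266 in replicate 1 and 819 in replicate 2. The peak at sls-2.1 (chrII:5844627-5845117) had 1789, rank 20, with 1058 and 743 in the 2 replicates. The peak at sls-2.4 on chromosome I had 1270, rank 49, with 764 and 507. Signal is the authors' deposited enrichment value, on a scale of its own in each list, so ranks are compared between lists and not levels. The 3 peaks ranked 12, 18 and 38 in replicate 1 and 17, 23 and 70 in replicate 2, so both replicates placed them near the top.

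Other SL2 genes were bound more weakly. sls-2.8 had a peak of 697 and sls-2.16, within the glutamate receptor gene glr-2, one of 673. The weakest bound SL2 gene, sls-2.14, had 207. Over the 20 SL2 peaks the median signal was 391.4, and all 20 overlapped one of the 5443 strongest peaks of each replicate. For 17 of the 20 the overlapping peak with the nearest summit was itself among those 5443 in both replicates. The others were second summits, at sls-2.9, sls-2.16 and sls-2.18. The 6 unbound SL2 genes lay 248 to 26775 bp from the nearest summit, and 3 of them had a summit of the relaxed pooled list, which includes background on purpose, within 200 bp. SL1 genes stand in a tandem array on chromosome V, and neither the pooled list nor either replicate's relaxed list held a single peak across it (chrV:17118154-17132107). The nearest summit was 27426 to 34481 bp away. Nothing in the sources used here says whether reads could be placed in that repeated array.

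Among the remaining snRNA genes, sup-6 and sup-39 were both bound, at 846 and 252. Both are known as U1 snRNA genes whose mutant alleles suppress a splice site mutation. Their sequence group, in which each gene had at least 90% identity to another member but not always to all, held 13 genes. Of those, 5 were bound. The annotation does not name the U1 to U6 families, and 18 of 87 genes without a family name were bound (20.7%). The strongest of those was C52E4.8 on chromosome V at 626, whose peak also lay in the promoter of snr-4, a core protein of the spliceosomal particles. F08H9.10 (505), F38E11.10 (486), T08G5.11 (484) and ZK1251.14 (473) followed. Among the SmY genes filed as snRNA the only bound one was smy-1, at 269. The annotation files smy-3 as a snoRNA gene, and it was bound too, at 271, with the summit inside it. It is counted with the snoRNA genes here. The annotation also files mir-1831, inside sup-39, as an snRNA gene, so the peaks of sup-39 count for it too.

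Bound tRNA genes were many and mostly weak. The strongest was F57F5.t1 for isoleucine on chromosome V, with a signal of 1018 (rank 109), 634 in replicate 1 and 387 in replicate 2. C12C8.t2 for glycine on chromosome I had 920, with 479 and 438. C16C8.t1 for lysine on chromosome II had 904, with 453 and 443. After B0350.t1 for lysine (580) and C27A2.t1 for isoleucine (568), no tRNA peak passed 500. The next were F01G12.t1 (494) and M02F4.t2 (494), both for glutamate, T23F1.t2 for proline (472), and F42A10.t2 (452) and C53C7.t2 (452), both for serine. The summits of M02F4.t2, T23F1.t2 and C53C7.t2 were each shared with the neighbouring gene t1. None of the 10 strongest tRNA peaks had its summit inside the tRNA gene, with 5 upstream and 5 downstream. In 4 of the 10 the summit also lay in a promoter of a protein-coding gene, as defined below. These were at F57F5.t1, C12C8.t2, T23F1.t2 and F42A10.t2, so these peaks cannot be given to the tRNA gene alone. The summits of F57F5.t1, C12C8.t2 and F42A10.t2 lay 87, 173 and 180 bp downstream of the tRNA gene.

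By isotype, the amino acid the tRNA carries, the share bound ran from 45.7% for lysine (21 of 46 genes) to 8.33% for tryptophan (1 of 12). Selenocysteine has 1 gene, which was not bound, and the 5 genes with no named isotype were not bound either. After lysine came valine (13 of 31, 41.9%), isoleucine (12 of 29, 41.4%), alanine (14 of 34, 41.2%) and histidine (7 of 20, 35%). Their strongest bound genes were C16C8.t1 for lysine, K03B8.t1 for valine (363), F57F5.t1 for isoleucine, F15G9.t1 and F15G9.t2 for alanine (412) and C06G1.t1 for histidine (298). The alanine pair shared a summit, which lay inside F15G9.t1. At the low end stood asparagine and methionine (4 of 20 each, 20%), tyrosine (2 of 19, 10.5%) and tryptophan, whose single bound gene was sup-5 (150), known for its amber suppressor alleles. The intervals of neighbouring isotypes overlap widely, from 32.2 to 59.8% for lysine against 1.49 to 35.4% for tryptophan at the extremes. No test between isotypes was made.

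tRNA genes exist in many identical copies. Of the 469 tRNA genes with at least 1 identical copy in the genome 156 were bound (33.3%), against 23 of the 143 with a sequence of their own (16.1%, Fisher exact p = 5.9e-05, a comparison added after the data were examined). Nothing in the sources used here says how reads from identical copies were placed, and its part in this difference was not tested. Among snRNA genes the shares went the other way without passing the threshold. There 8 of 44 genes with an identical copy were bound (18.2%), against 25 of 85 without one (29.4%, Fisher exact p = 0.20). The B box core GGTTCGA, sought on the gene's strand, was present in 68.7% of bound tRNA genes and 62.8% of unbound ones, and in 0.264% of genomic windows of 72 bp. Another tRNA gene lay within 500 bp of 26.8% of bound and 28.2% of unbound tRNA genes.

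The snoRNA class had its strongest peak at Y53F4B.47 on chromosome II, with a signal of 819 (485 in replicate 1 and 306 in replicate 2). F17C11.24 on chromosome V had 809, with 421 and 381. F59C6.15 on chromosome I had 797, with 422 and 354. F01D5.12 (723), ZK994.7 (666), F25H2.15 (643), C07A9.14 (621), Y67A10A.14 (615), C36E8.11 (607) and C16D9.10 (601) completed the 10 strongest. In 9 of these 10 peaks the summit lay upstream of the snoRNA gene, and in 1, at F17C11.24, 3 bp inside it. A promoter of a protein-coding gene also held 5 of the 10 summits. The annotation gives no guided site for these genes, so no role is assigned to them singly.

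Peaks of the 3 classes differed in strength. The median signal was 197.3 at tRNA genes, 309.7 at snRNA genes and 271.5 at snoRNA genes, against 252.3 at the 5151 other peaks. Of all members 61 of 292 (20.9%) were among the 1361 strongest peaks of the list, against 1300 of 5151 other peaks (25.2%, Fisher exact p = 0.11, adjusted p = 0.11 over the 4 comparisons of members with other peaks). Among the 2722 strongest the shares were 40.4% of members and 50.6% of other peaks, which did pass (Fisher exact test, adjusted p = 0.00099). By class, the 1361 strongest peaks of the list held 14 of 159 tRNA peaks (8.81%), 20 of 44 snRNA peaks (45.5%) and 26 of 88 snoRNA peaks (29.5%). By Fisher exact tests the tRNA share was lower than the snRNA share (adjusted p = 9.6e-07) and the snoRNA share (adjusted p = 0.00014), while snRNA against snoRNA gave 0.10. These tests, and those on replicates by class, were added after the data were examined and adjusted together over 6.

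**Figure D2:**
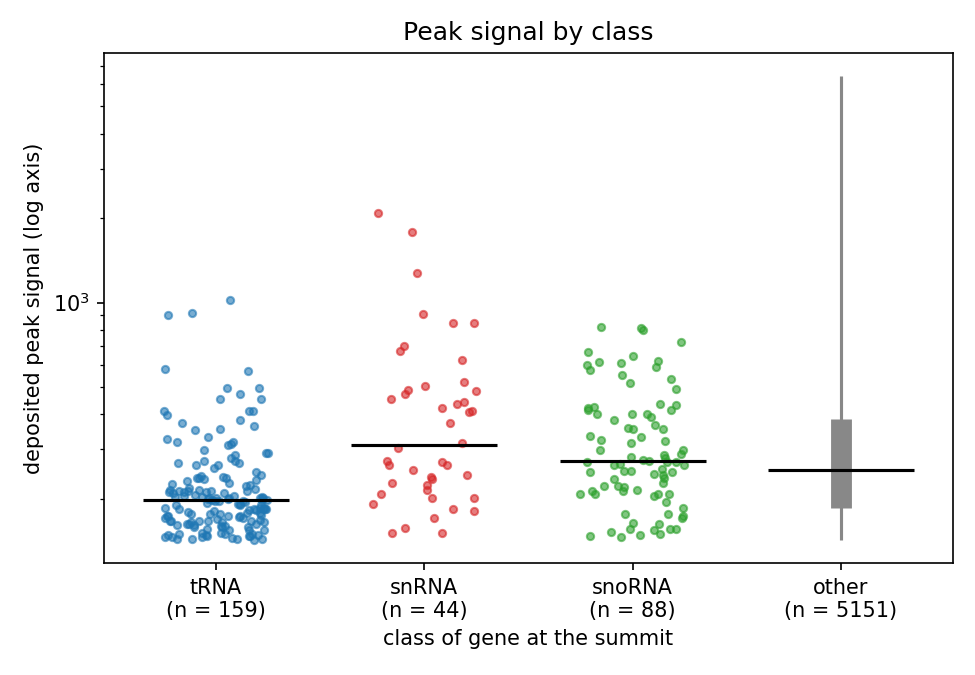
Deposited peak signal on a log axis for each member peak of a single class (points), by class, with the median as a black line. For the other peaks the thick bar spans the quartiles and the thin line the full range. The peak at genes of both the tRNA and the snRNA class is not drawn. tRNA peaks have a median of 197.3, below the 309.7 of snRNA and 271.5 of snoRNA peaks, and 3 SL2 peaks stand on top of the snRNA column.

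The share of peaks found in both replicates also differed by class. A peak was counted where it overlapped one of the 5443 strongest peaks of each replicate, which held for 234 of 292 members (80.1%), against 4387 of 5151 other peaks (85.2%, Fisher exact p = 0.023, adjusted p = 0.031). The share was 111 of 159 for tRNA (69.8%), 42 of 44 for snRNA (95.5%) and 80 of 88 for snoRNA peaks (90.9%). tRNA peaks fell short of snRNA peaks (adjusted p = 0.00039) and of snoRNA peaks (adjusted p = 0.00023, Fisher exact tests). A peak that overlaps 2 summits can count through the stronger one. When instead the overlapping peak with the nearest summit had to be among the 5443, an alternative added after the data were examined, the counts were 111 of 159 for tRNA, 38 of 44 for snRNA (86.4%) and 79 of 88 for snoRNA peaks (89.8%). The difference of tRNA from snRNA peaks then missed the threshold (Fisher exact test, adjusted p = 0.050, just over it), while that from snoRNA peaks passed it (adjusted p = 0.00053). The weaker signal of tRNA peaks moves with this share, though its part in it was not tested. Of the tRNA peaks that missed the overlap, 35 overlapped a peak among the strongest of replicate 2 only and 13 of replicate 1 only. The 5151 other peaks leaned the other way, with 304 for replicate 2 only and 442 for replicate 1 only. Spearman's rho between the 2 replicates' signals was 0.52 over tRNA peaks, 0.87 over snRNA peaks and 0.85 over snoRNA peaks. It is a description over peaks that share both libraries.

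**Figure D3:**
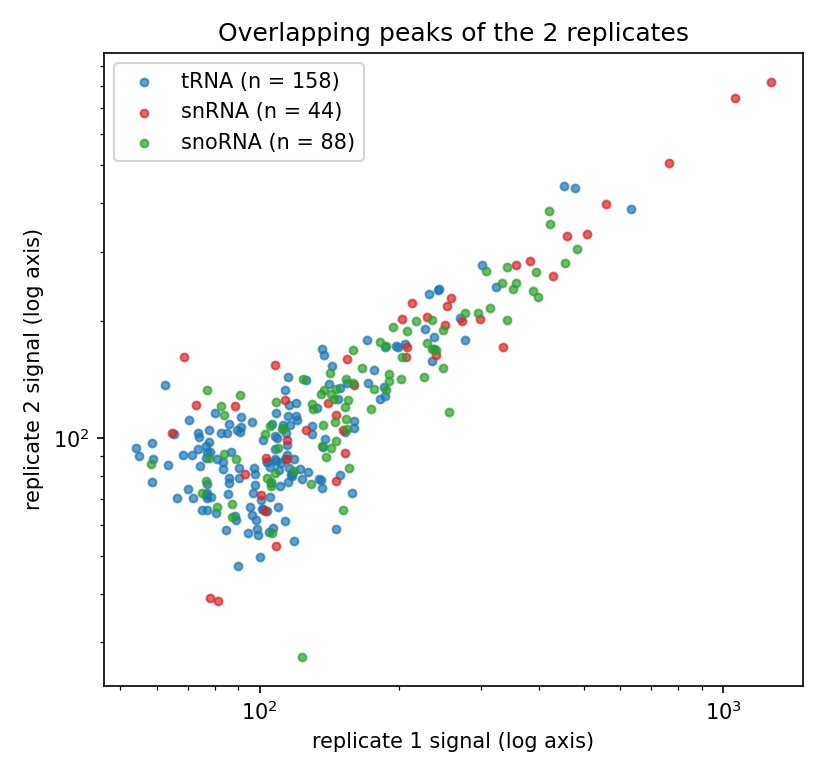
Signal of the overlapping peak with the nearest summit in replicate 1 (x axis, log) and replicate 2 (y axis, log) for each member peak of a single class, coloured by class. The peak at genes of both the tRNA and the snRNA class is not drawn. snRNA and snoRNA points follow a line up to the SL2 peaks at the upper right, while most tRNA points sit in a cloud at the weak end; 1 tRNA peak with no overlap in replicate 1 is not drawn.

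The next question was whether these summits hold the GATA site. TGATAA, on either strand, was within 50 bp of 31 of 292 member summits (10.6%, interval 7.58 to 14.7), against 2420 of 5151 other summits (46.98%, 45.6 to 48.3). The difference was far past the threshold (Fisher exact p = 5.2e-39, adjusted p = 2.1e-38). The members' own flanks, equally wide and centred 500 bp to the right of the summit, contained it in 29 of 292 cases (9.93%), and the difference between summit and flank did not pass the threshold (exact McNemar p = 0.89, 27 peaks with it at the summit only and 25 at the flank only). The classes went different ways within this count, with 29 tRNA summits against 15 tRNA flanks (18.2% against 9.43%), 0 snRNA summits against 9 flanks (0% against 20.5%) and 2 snoRNA summits against 5 flanks (2.27% against 5.68%), and these were not tested by class. Of all 101-bp windows of the genome 9.35% hold it. The looser motif WGATAR was present at 21.9% of member summits and 59.7% of other summits. Within 150 bp, 74.3% of members had no copy of TGATAA, against 32.2% of other peaks.

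The classes differed here too. TGATAA was at 29 of 159 tRNA summits (18.2%), 0 of 44 snRNA summits (upper limit of the interval 8.03%) and 2 of 88 snoRNA summits (2.27%). tRNA peaks had it more often than snRNA peaks (adjusted p = 0.0014) and snoRNA peaks (adjusted p = 0.00032, Fisher exact tests), and snRNA against snoRNA gave 0.55. The difference of tRNA from snRNA peaks missed the threshold in a window of 100 bp (25.8% against 11.4%, Fisher exact test, adjusted p = 0.066) and with WGATAR (30.2% against 13.6%, adjusted p = 0.050, just over it). Part of the tRNA share comes from valine. All 31 valine tRNA genes hold TGATAA inside the gene, as K03B8.t1 shows above, and in 10 of the 29 tRNA peaks the only copy near the summit was inside a valine tRNA gene. The other 19 peaks had a copy outside the gene, which leaves 11.9% of tRNA peaks, and with copies inside genes not counted the tRNA share still exceeded that of snRNA peaks (adjusted p = 0.023, Fisher exact test). These 19 had a median signal of 216.5, against 182.1 for the 10 and 196.1 for the 130 without a copy. Of the 10 strongest tRNA peaks 5 held TGATAA, among them the top 4, F57F5.t1, C12C8.t2, C16C8.t1 and B0350.t1. None of the 10 strongest snRNA or snoRNA peaks did. Of the 5 tRNA peaks with it, those at F57F5.t1, C12C8.t2 and F42A10.t2 also had their summits in promoters of protein-coding genes.

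**Figure D4:**
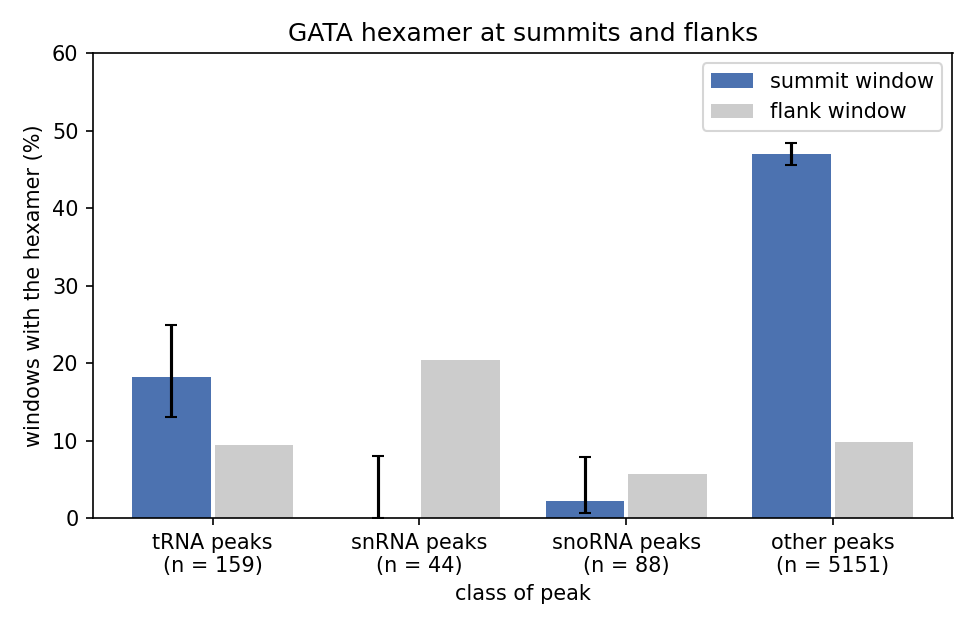
Percent of windows with TGATAA within 50 bp of the summit (blue bars, with Wilson 95% intervals) and in the flank window 500 bp away (grey bars), by class of peak. Other peaks reach 46.98% at the summit against 9.90% at the flank, while snRNA peaks have 0 at the summit and snoRNA peaks 2.27%.

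Some printed windows share other letters. GAACCC stands in the windows of sls-2.8, sls-2.16 and Y53F4B.47 and not in the other SL2 windows. It was then counted, on either strand, in the 100 bases before each gene, and since it was chosen after these sequences were seen no test is given. It was before 23 of 85 bound snoRNA genes (27.1%) and 15 of 261 unbound ones (5.75%), before 12 of 33 bound snRNA genes (36.4%) and 23 of 96 unbound ones (24.0%), and before 1 of 179 bound tRNA genes (0.559%) and 8 of 433 unbound ones (1.85%). Within the snRNA class it was before 4 of 12 bound and 1 of 6 unbound SL2 genes. For SmY genes the counts were 0 of 1 bound and 5 of 9 unbound, and for SL1 genes, all unbound, 2 of 12. Of genomic windows of 100 bp 1.82% hold it. Among snoRNA genes inside a protein-coding gene it was before 8 of 39 bound and 7 of 177 unbound genes, and among those outside before 15 of 46 bound and 8 of 84 unbound genes. Within 50 bp of summits it was at 8 of 44 snRNA peaks (18.2%), 19 of 88 snoRNA peaks (21.6%) and 24 of 159 tRNA peaks (15.1%), against 88 of 5151 other peaks (1.71%). In tRNA genes these letters can overlap the B box, as in K03B8.t1 above. A match is a description of the letters and not of a bound factor.

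Summits gathered at the 5′ end of the genes. The strongest summit lay within 100 bp before it at 101 of 179 bound tRNA genes (56.4%), 17 of 33 bound snRNA genes (51.5%) and 62 of 85 bound snoRNA genes (72.9%). Taking the nearest gene of each member, the summit was upstream in 180, inside in 68 and downstream in 44. The median position relative to the 5′ end was -11 bp at tRNA peaks (quartiles -31 and 40), 18.5 bp at snRNA peaks (-35.75 and 155.25) and -32.5 bp at snoRNA peaks (-58.75 and -6). The wide snRNA spread comes with genes that had 2 summits. This was so for 14 snRNA genes, 8 of them SL2 genes, and for 4 snoRNA genes and no tRNA gene. In 11 of the 14 the summits stood 1 on each side of the gene. They were 199 to 211 bp apart, and 199 bp is also the smallest spacing of any neighbouring summits in the whole list, so the spacing is at the list's own limit. At sls-2.2 the second summit, 181 bp after the 5′ end in the same interval, had a signal of 909.

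**Figure D5:**
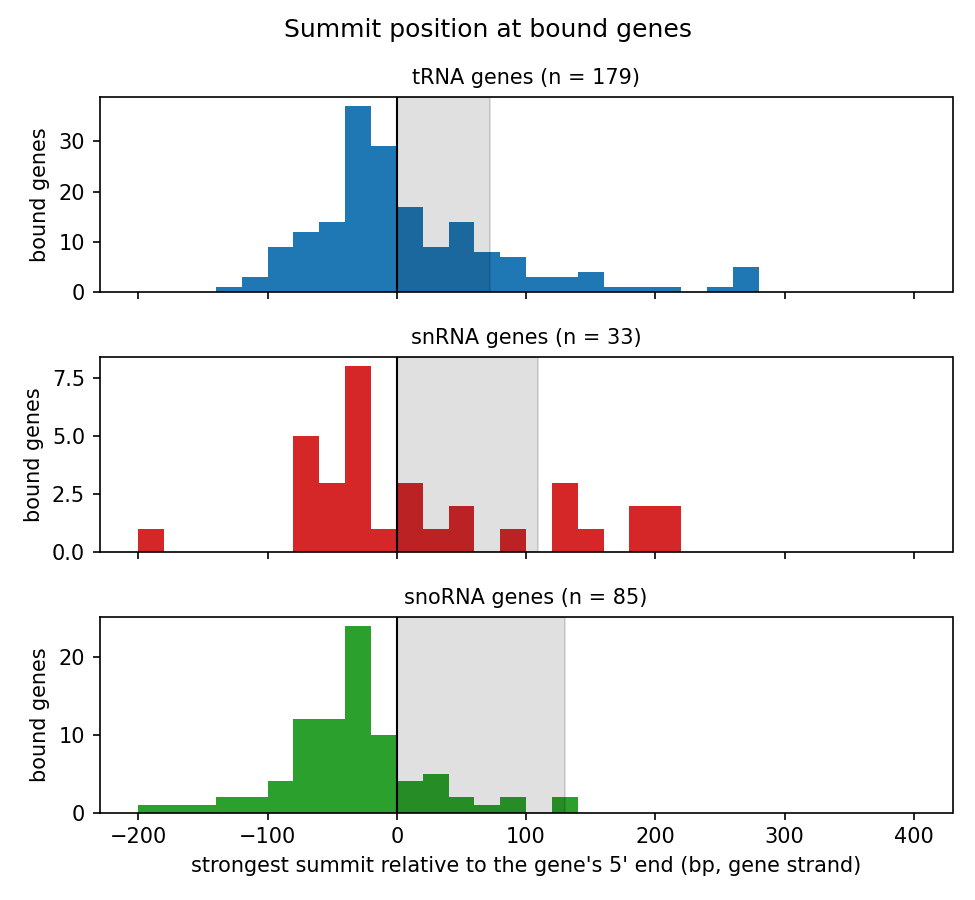
Number of bound genes by position of their strongest summit relative to the gene's 5′ end (x axis, bp on the gene's strand, bins of 20 bp), for tRNA, snRNA and snoRNA genes from top to bottom. The grey band is the gene at its median length. Most summits lie within 100 bp before the 5′ end, and snRNA genes have a second group beyond the gene.

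Bound and unbound genes were compared in 4 properties per class, with Fisher exact tests adjusted over the 12. A 5′ end of a protein-coding gene lay within 1000 bp of 23 of 33 bound snRNA genes (69.7%) and 39 of 96 unbound ones (40.6%, Fisher exact test, adjusted p = 0.028). With replicate 1 alone this was 65.6% against 42.3% and no longer past the threshold (Fisher exact test, adjusted p = 0.15). Bound snoRNA genes lay inside a protein-coding gene less often, 39 of 85 (45.9%) against 177 of 261 unbound ones (67.8%, Fisher exact test, adjusted p = 0.0055). The other 10 comparisons did not pass. TGATAA was within 200 bp of 41.9% of bound tRNA genes and 39.95% of unbound ones (Fisher exact test, adjusted p = 1), with 18.2% against 16.7% for snRNA and 35.3% against 34.5% for snoRNA genes. Of bound tRNA genes 88 of 179 were on X (49.2%), against 188 of 433 unbound ones (43.4%, Fisher exact test, adjusted p = 0.51). By chromosome the bound tRNA share was 31.9% on X, and ran from 15.4% on V to 49.1% on II. Bound snRNA shares ran from 12.5% of 40 genes on V, where the SL1 array lies, to 69.2% of 13 genes on III.

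Members lay less often than other peaks in promoters of protein-coding genes, taken as 1000 bp before to 200 bp after a 5′ end. A promoter held 104 of 292 members (35.6%) against 2972 of 5151 other peaks (57.7%, Fisher exact p = 2.4e-13, adjusted p = 4.9e-13). By class the share was 27.7% for tRNA, 54.5% for snRNA and 40.9% for snoRNA peaks. Where such a promoter is near, the peak cannot be given to one gene rather than the other. Among genes with no protein-coding 5′ end within 1000 bp, 14.9% of snRNA genes were bound, against 25.6% of all snRNA genes. The other classes moved less, to 28.9% from 29.2% for tRNA and to 22.7% from 24.6% for snoRNA genes.

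Below the reproducible list, many tRNA genes still had a weak peak. A summit of the relaxed pooled list was within 200 bp of 195 of the 433 unbound tRNA genes (45.0%), 13 of the 96 unbound snRNA genes (13.5%) and 42 of the 261 unbound snoRNA genes (16.1%). Bound and unbound together, that list reached 61.1% of tRNA genes, 35.7% of snRNA genes and 36.7% of snoRNA genes, against 7.56% of start positions of a 77-bp feature. Among the unbound genes first in the alphabet, B0244.t1 was 23370 bp and B0244.t2 15741 bp from a summit, B0205.15 and B0213.21 (snRNA) 23906 and 5713 bp, and B0041.9 and B0213.18 (snoRNA) 10191 and 2952 bp. At the 200 bp limit, C10G8.t1 (199 bp), F28H6.t7 (195 bp) and F49C5.t2 (193 bp) were just inside among tRNA genes, with signals of 238, 147 and 273. H08J11.t2 (202 bp), C28G1.t2 (218 bp) and K11E4.t3 (227 bp) were just outside. Among snRNA genes ZK1251.14 (183 bp) was inside, and W07G1.24 (218 bp) and sls-2.6 (248 bp) were outside. Among snoRNA genes R166.10 (199 bp) was inside and R10A10.3 (201 bp) outside.

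Promoters of genes for the machinery of these RNAs were read from fixed lists, beside 17% of all 19973 protein-coding genes with a summit in the promoter. Of the matched genes of snoRNA particles 7 of 9 were bound, with fib-1 (332), the methyltransferase fibrillarin, nol-56 (281) and nol-58 (243), core proteins of the same particles, and nol-10 (246) the strongest and dkc-1, the pseudouridine synthase dyskerin, and gar-1 unbound. In C. elegans gar-1 names an acetylcholine receptor, so it does not belong to the list's purpose and entered through its name. The place of nol-10, 1 of the 7 bound, among these proteins is also doubtful. On the list for snRNP proteins and SNAPc 10 of 30 genes were bound, led by snr-4 (626), snr-1 (281), prp-8 (202) and snr-3 (200). Among the unbound were lsm-1 and lsm-4. The place of lsm-1 and of sut-2, also unbound, on this list is doubtful. The snr-4 peak is the one given above at C52E4.8. Aminoacyl-tRNA synthetases, which load tRNAs with amino acids, were bound in 3 of 20 cases, at kars-1 (207), mars-1 (168) and cars-1 (149), with aars-2 and dars-1 among the unbound. RNA polymerase III and its factors were bound in 2 of 17 cases, at tftc-1 (210), a subunit of the factor that binds the B box, and rpac-19 (179), with brf-1 and mafr-1 among the unbound. At the main setting the snoRNA and snRNA lists had shares above the 17% of all genes, and the other lists had shares below it. With promoters of 500 bp before to 100 bp after the 5′ end, the snRNA list had 7 of 30 bound (23.3%). The snoRNA list then had 6 of 9. Without replicate 1 the snRNA list also had 7 of 30, and without replicate 2 the synthetase list had 4 of 20 (20%). For these settings no share of all genes is given. With lists this short the counts are given as a description.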

How the data were processed

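ELT-2-GFP ChIP-seq peak lists of 2 replicates on ce11 were used. The signal of each peak is the authors' deposited value, and per the labels each list derives from 1 or both replicates and a control. The summit is the deposited offset from the peak's start. For the aligner, peak caller and IDR threshold, the sources used here give nothing. Lists on ce10 were not used.

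Genes came from the Ensembl release 115 annotation of WBcel235. Symbols of all 612 nuclear tRNA genes, and isotypes of 607, came from RefSeq by WormBase identifier. The 22 mitochondrial tRNA genes were not used. The members and gene lists were chosen with earlier results of these data known. In the machinery lists 7 symbols did not match the annotation.

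Shares carry Wilson 95% intervals. Tests are two-sided Fisher exact or exact McNemar tests with Benjamini-Hochberg adjustment and a threshold of 0.05. Genes and peaks, not replicates, are the units of these tests, so the p-values describe this list and not the spread between worms. No label says how the cultures were separated. Replicate values are those of the overlapping peak with the nearest summit, and the strongest N peaks of a replicate are as many as the reproducible list holds. A list reached by leaving out a replicate is the 5443 strongest peaks of the other. Named genes are those at the 10 strongest peaks of each class, the strongest of each named snRNA family and of the 5 isotypes bound most often, the first unbound genes in the alphabet, those at the 200 bp limit, and up to 4 bound genes per machinery list. Others were named after their values were seen (sls-2.14, sup-39, mir-1831 and sls-2.13, for example). Alternatives were other distances, windows, motifs, flanks and promoters, the 2722 strongest peaks of the list, loci and each replicate left out. Not counting hexamers inside genes, counting each interval once (290 intervals hold the 292 members), counting replicate agreement by the nearest summit, tests between classes of strength and replicate agreement, and identical copies were added after the data were examined. The scripts were tested on simulated peaks. Programs were written in Python 3.11.15 with statsmodels 0.14.6, SciPy 1.17.1, matplotlib 3.10.9, pandas 2.3.3 and NumPy 2.4.6.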

Additional observations from a re-analysis of the deposited data

How the results depend on the processing

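Of 212 recomputed values 174 kept their direction and side of the threshold, or stayed within the interval or 1.5 times the main count. In 22 the direction changed, in 20 of them with the difference past the threshold neither before nor after. The shares bound moved with the reach: with the summit inside the gene they were 7.35% for tRNA, 7.75% for snRNA and 4.05% for snoRNA genes, and at 500 bp 33.5% for tRNA and 30.3% for snoRNA genes. With the 2722 strongest peaks they were 7.52%, 17.8% and 15.0%, and tRNA minus snRNA (-10.3 points) and tRNA minus snoRNA (-7.51 points) reversed past the threshold. Without passing it, tRNA minus snRNA was -0.40 points with the summit inside the gene, and snRNA minus snoRNA was -0.89 points at 500 bp and -7.78 points away from protein-coding 5′ ends, where the snRNA share was 14.9%. Without each replicate in turn the tRNA share ran from 25.2% to 30.6%, and the snRNA excess near protein-coding 5′ ends from 23.4 to 37.4 points.

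Summit minus flank for TGATAA was -1.71 points with a 100 bp window, -1.09 at 100 bp distance, -2.54 in the 2722 strongest peaks, -3.08 with hexamers inside genes not counted, and from -2.31 to -1.52 without each replicate. tRNA minus snRNA summits differed by 14.4 points with a 100 bp window (Fisher exact test, adjusted p = 0.066) and 16.6 points with WGATAR (adjusted p = 0.050, just over the threshold), where snRNA minus snoRNA was 2.27 points. Members minus other peaks among the 1361 strongest was -13.4 points for summits inside genes (Fisher exact test, adjusted p = 0.014) and -10.1 points among the 2722 strongest (adjusted p = 0.00099), both past the threshold. Counting replicates by the nearest summit gave tRNA minus snRNA -16.6 points (Fisher exact test, adjusted p = 0.050) and snRNA minus snoRNA -3.41 points.

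Bound minus unbound for TGATAA near the gene was -1.38 points for tRNA, -1.90 for snRNA and -0.65 for snoRNA genes at 100 bp. For snoRNA it was -0.50 over loci and from -2.83 to -2.31 without each replicate. Bound minus unbound for lying inside a protein-coding gene was, for snRNA genes, 1.55 points at 100 bp and 1.65 at 500 bp. That difference ran from -2.24 to 1.55 points without each replicate. The cause of these shifts was not tested. No paired analysis was possible because there is 1 group. Depth is unknown, and the intervals cover counting error only. Genes and peaks that share a locus or a sequence are not independent, so their p-values may be too small.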
